A study of Homo sapiens with 8 samples.

Results

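The receptors for neurotrophins and for ligands of the GDNF (glial cell line-derived neurotrophic factor) family, with ALK and its close relative LTK, form a group of 9 genes: NTRK2, NTRK3, NGFR, RET, GFRA1, GFRA2, GFRA3, ALK and LTK. They were chosen by name, as annotated by GENCODE on GRCh37, out of 64486 annotated genes, of which 20176 are protein-coding. For each gene, peaks of captured methylated DNA were counted around each annotated transcription start site (TSS), in a promoter window that began 1500 bp before it and ended 1000 bp after it, and along its gene body. The peaks came from 8 neuroblastoma (NB) cell lines, 1 sample per line, in which sheared DNA was captured with the methyl-CpG-binding domain of MBD2 and sequenced (MBD-seq). The labels give MYCN as amplified (MNA) in 4 lines, CHP-902R, LAN-2, N206 and IMR-32, and as not amplified (MYCN single copy) in the other 4, SJNB-1, SK-N-AS, CLB-GA and SH-SY5Y. No treatment and no other genotype of the lines is labelled. Each line is an established culture grown from 1 patient's tumor, so the lines of a group differ in far more than MYCN.

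Neurotrophins act on nerve cells through tyrosine kinase receptors, among them TrkB (NTRK2) and TrkC (NTRK3), and through p75NTR (NGFR), which has no kinase. RET is the tyrosine kinase of the GDNF family: its ligands first bind a co-receptor of the GFRA family, which then engages RET. Several of these receptors serve the developing sympathetic nervous system, from which NB arises, and ALK is a tyrosine kinase that is mutated or amplified in part of these tumors. Methylation of a CpG-rich promoter is a known mark of a silenced gene, whereas methylation within a gene body is common in expressed and silent genes alike.

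The 8 lists held between 70816 and 112412 peaks and covered between 1.28% and 1.97% of the genome. Within 1 Mb of MYCN, peaks covered between 8.68% and 19.8% of the DNA in the MNA lines and between 1.87% and 4.76% in the single copy lines, so that every line labelled MNA lay above every other line. Read counts are not part of the lists, the depth of each line is therefore unknown, and the absence of a peak is not the absence of methylation. No gene of the genome, and so no receptor, passed an adjusted p of 0.05 between the MYCN groups, and none could: the smallest p of 4 lines against 4 is 0.0286, and at least 20495 of the 35865 genes tested for promoter peaks, or 21260 of the 37205 tested for body cover, would have needed it. The adjusted p-values therefore do not show that the groups were alike. What the lists show is where in each receptor gene the peaks lie, and how far the lines share them.

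Of the 9 receptors, 7 had a promoter peak in at least 1 line and the same 7 in at least 2 lines, where 73.9% and 60.9% of all protein-coding genes did. In at least 6 lines 3 did so (NTRK3, NGFR and ALK), against 21.6% of protein-coding genes, and NTRK3 alone had one in all 8 lines, against 6.11%. GFRA3 and LTK had none. These counts take every annotated TSS, and for NTRK2, NTRK3, RET, GFRA1 and ALK most of the lines counted had their peak at the start of another transcript than the canonical one, usually within the gene. At the TSS of the canonical transcript, the one GENCODE ranks as representative, 5 receptors had a peak in at least 1 line (48.5% of protein-coding genes) and 2, NGFR and GFRA2, in at least 2 lines (30.5%). The number of receptors with a promoter peak was 2 in CHP-902R, 6 in LAN-2, 4 in N206, 5 in IMR-32, 4 in SJNB-1, 5 in SK-N-AS, 4 in CLB-GA and 6 in SH-SY5Y. CHP-902R was the lowest of these, although 37.5% of its protein-coding genes had a promoter peak, within the range of 33.2% to 40.9% over the lines.

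**Figure D1:**
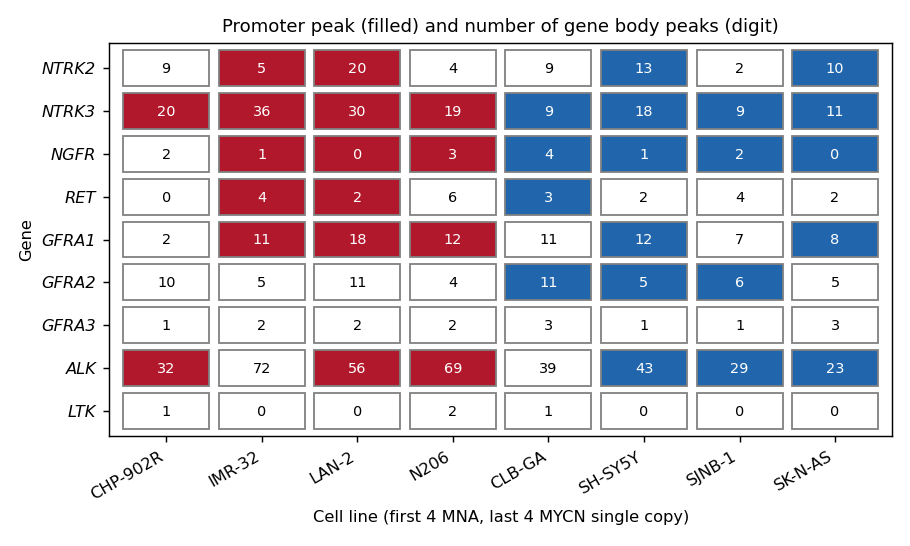
Promoter peaks and gene body peaks of the 9 receptor genes (rows) in the 8 cell lines (columns). A filled cell marks a peak in any promoter window of the gene, red in MNA and blue in MYCN single copy lines, and the digit is the number of peaks in the gene body; NTRK3 is filled in 8 lines, and GFRA3 and LTK in none.

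The stretches below are the DNA under peaks that several lines shared, cut to the part that all of those peaks cover and to its central 300 bp where it was longer. They were chosen to set coding exons of 3 receptors beside shared stretches within introns that held fewer CpG. Each is the GRCh37 reference, 5′ to 3′ on the plus strand, with every CG dinucleotide in capitals.
NTRK2 exon 17, 6 lines, chr9:87570169-87570381: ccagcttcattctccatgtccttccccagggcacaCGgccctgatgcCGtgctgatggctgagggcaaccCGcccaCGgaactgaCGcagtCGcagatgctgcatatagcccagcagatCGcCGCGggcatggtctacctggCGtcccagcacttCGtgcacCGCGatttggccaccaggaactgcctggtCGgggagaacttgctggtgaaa
GFRA1 exon 3, 6 lines, chr10:118030364-118030611: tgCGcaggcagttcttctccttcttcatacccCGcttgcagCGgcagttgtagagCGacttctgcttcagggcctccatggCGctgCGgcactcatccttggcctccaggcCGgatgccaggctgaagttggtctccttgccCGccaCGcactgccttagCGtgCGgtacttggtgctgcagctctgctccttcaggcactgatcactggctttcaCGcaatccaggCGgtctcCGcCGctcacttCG
GFRA3 exon 4, 6 lines, chr5:137593321-137593620: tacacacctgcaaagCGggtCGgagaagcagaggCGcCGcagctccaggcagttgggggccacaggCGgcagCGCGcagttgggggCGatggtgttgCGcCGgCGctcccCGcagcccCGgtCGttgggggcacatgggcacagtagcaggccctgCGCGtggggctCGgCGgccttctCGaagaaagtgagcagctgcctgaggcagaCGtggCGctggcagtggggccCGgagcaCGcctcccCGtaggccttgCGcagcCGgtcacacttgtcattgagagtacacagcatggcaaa
NTRK3 intron 3, 6 lines, chr15:88778478-88778635: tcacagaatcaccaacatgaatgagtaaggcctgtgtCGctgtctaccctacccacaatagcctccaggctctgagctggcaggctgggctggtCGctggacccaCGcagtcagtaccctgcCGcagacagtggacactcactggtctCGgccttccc
ALK intron 1, 6 lines, chr2:29993758-29994057: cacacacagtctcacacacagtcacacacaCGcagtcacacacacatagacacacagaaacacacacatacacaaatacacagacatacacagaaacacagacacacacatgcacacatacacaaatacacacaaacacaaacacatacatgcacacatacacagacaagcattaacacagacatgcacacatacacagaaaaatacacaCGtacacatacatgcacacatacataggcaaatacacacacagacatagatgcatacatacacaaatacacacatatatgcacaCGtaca

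The NTRK2 stretch lay in coding exon 17 and held 14 CpG in 213 bp. That of GFRA1, in coding exon 3, held 16 in 248 bp, and that of GFRA3, in coding exon 4, held 26 in 300 bp. The NTRK3 stretch in intron 3 held 5 in 158 bp, and the ALK stretch in intron 1 held 3 in 300 bp. This order follows from the choice of the stretches and does not hold for all shared ones. One in NTRK3 intron 14, shared by 5 lines, held 15 CpG in 300 bp. Another in ALK coding exon 29, shared by 7 lines, held 9 in 300 bp. The ALK stretch in intron 1 is built of short repeated units, which can be read in the letters: ACA occurs 47 times without overlap. Whether such repeats affected the mapping of the 45 bp reads was not tested.

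NGFR codes for p75NTR, which binds all neurotrophins. The gene covers 19.7 kb (chr17:47572655-47592370, plus strand). All lines but CHP-902R had a peak just upstream of its canonical TSS, and these peaks lay on the same DNA: the 7 shared 293 bp within a region of 860 bp (chr17:47571624-47572483). Their centres were 602 to 788 bp upstream of the TSS. The score, minus 10 times log10 of the p-value that MACS gave the peak, was 115 in LAN-2, 105 in N206, 83.3 in IMR-32, 73.6 in SJNB-1, 130 in SK-N-AS, 71.5 in CLB-GA and 84.8 in SH-SY5Y, where 50 is the lowest value in every list. None of the 7 peaks reached the TSS, and the region held 3.49 CpG per 100 bp.

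A second shared site of NGFR was its coding exon 3, about 11 kb into the gene. Peaks there were found in 6 lines, in CHP-902R too but not in LAN-2 and SK-N-AS, and the scores ran from 91.5 to 174. These were strong peaks for their lists: the median of their percentiles was 93.3. LAN-2 and SK-N-AS had no peak anywhere in the gene body. Thus each line had a peak at one or both of these sites, and 5 of them, N206, IMR-32, SJNB-1, CLB-GA and SH-SY5Y, had peaks at both. Peaks covered 7.53% of the body in CHP-902R, 0% in LAN-2, 19.2% in N206 and 9.76% in IMR-32, against 7.17% in SJNB-1, 0% in SK-N-AS, 11.5% in CLB-GA and 5.89% in SH-SY5Y. The groups overlapped, with N206 above every other line, and had means of 9.11 ± 7.89% and 6.13 ± 4.73% (SD, n = 4 lines each; two-sided exact permutation p = 0.571, adjusted p = 1.0).

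NTRK2, which codes for TrkB, the receptor of BDNF and neurotrophin-4, spans 427.4 kb (chr9:87283290-87710666, plus strand) and has 30 annotated TSSs. Its canonical promoter window was rich in CpG, with 8.2 per 100 bp, where the median protein-coding gene had 4.2. A peak in that window was found in IMR-32 only (chr9:87285112-87285619, exon 2, untranslated). It held 9.84 CpG per 100 bp and had a score of 82.3. In LAN-2, SK-N-AS and SH-SY5Y the promoter peaks lay at internal starts, 37.1 to 192.4 kb into the gene, and CHP-902R, N206, SJNB-1 and CLB-GA had none. The site shared by most lines was coding exon 17 (chr9:87569911-87570804), with a peak in CHP-902R, LAN-2, N206, SJNB-1, CLB-GA and SH-SY5Y.

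Peak cover of NTRK2 was low in every line. It was 0.826% in CHP-902R, 2.07% in LAN-2, 0.353% in N206 and 0.584% in IMR-32, and 0.223% in SJNB-1, 0.978% in SK-N-AS, 0.77% in CLB-GA and 1.51% in SH-SY5Y. The group means were 0.957 ± 0.764% in MNA and 0.87 ± 0.532% in single copy lines (p = 0.886 by exact permutation, adjusted p = 1.0). These values put the gene between the percentiles 36.0 and 48.0 of protein-coding genes in every line. The percentile is the share of genes with lower cover, and only 63.5% to 67.9% of protein-coding genes had a body peak. Most of the genes ranked below NTRK2 thus had no peak at all.

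NTRK3 codes for TrkC, the receptor of neurotrophin-3. It is of similar length, 397.0 kb (chr15:88402982-88800022, minus strand), but carried 152 body peaks over the 8 lines where NTRK2 carried 72. Every line had a promoter peak, yet those in 7 lines lay in internal windows only. The exception was N206, with a peak centred 1519 bp upstream of the canonical TSS (score 82.3). The internal start in intron 3, about 50 kb into the gene (chr15:88748396-88750652), had peaks in LAN-2, IMR-32, SJNB-1, SK-N-AS, CLB-GA and SH-SY5Y, with scores of 61.4 to 84.5. Peaks at this start were found in all 4 single copy lines and in 2 of 4 MNA lines (two-sided Fisher's exact p = 0.429). The canonical promoter window, with 7.52 CpG per 100 bp, was thus free of a called peak in all lines but N206.

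Peaks covered 2.26% of the NTRK3 body in CHP-902R, 3.73% in LAN-2, 2.43% in N206 and 5.04% in IMR-32. In the single copy lines the values were 0.936% in SJNB-1, 1.44% in SK-N-AS, 1.08% in CLB-GA and 2.28% in SH-SY5Y. The MNA lines were the higher, apart from CHP-902R, which lay just below SH-SY5Y. The means were 3.36 ± 1.3% and 1.43 ± 0.603% (SD, n = 4 lines each), a difference of 1.93 percentage points (exact permutation p = 0.0571, adjusted p = 1.0 over 37205 genes). With the same number of peaks taken from each line the difference was 1.54 and the groups no longer overlapped (exact permutation p = 0.0286, which is the smallest that 4 lines against 4 can give, adjusted p = 1.0). Among peaks with a score of at least 100 it was 0.379 (exact permutation p = 0.143). The DNA within 500 kb on either side of the gene showed a difference of the same sign, 2.99 ± 1.21% against 1.62 ± 0.754% (exact permutation p = 0.0857). Over all genes tested, 63.2% had the higher mean cover in MNA lines, as did 8 of the 9 receptors, and the unadjusted p was under 0.05 in 1.7% of genes with MNA higher and in 0.339% with single copy higher. For the cover of the whole gene body by all peaks, none of the receptors was among these over the 8 lines. The MNA lists are also the longer, with at least 88496 peaks against at most 86079 in the single copy lines.

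**Figure D2:**
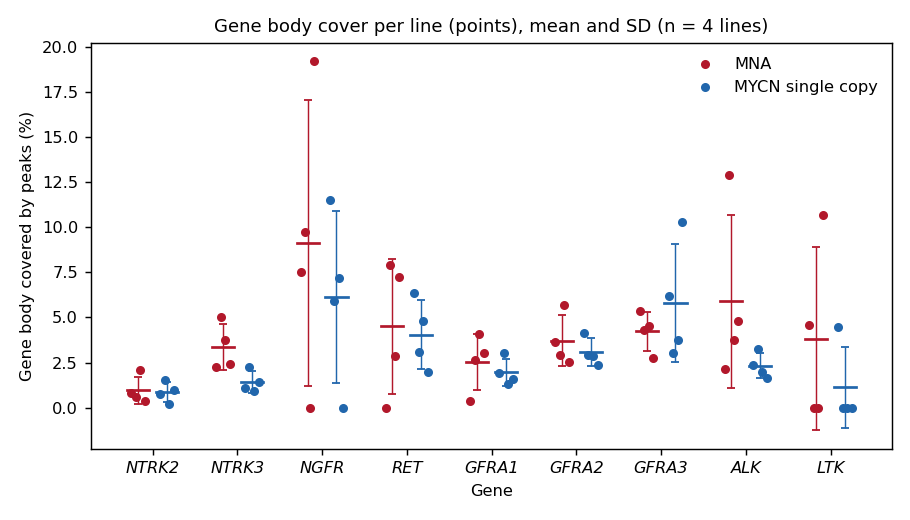
Share of each receptor gene body covered by peaks, in percent, for the 4 MNA lines (red points) and the 4 MYCN single copy lines (blue points); horizontal bars are group means and whiskers the SD. For no receptor are the groups apart: the nearest is NTRK3, with 2.26 to 5.04% in MNA and 0.936 to 2.28% in single copy lines, and the point of 12.9% in ALK is IMR-32.

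RET spans 53.3 kb (chr10:43572512-43625799, plus strand). No line had a peak in the window of its canonical TSS, which held 8.24 CpG per 100 bp and ranked at the percentile 94.5 among protein-coding genes. Within the gene, the peak nearest to that TSS was one of SH-SY5Y in intron 1, centred 1862 bp into the gene with a score of 52.9. The promoter peaks of RET lay instead at an internal start around coding exons 4 and 5, about 28 kb into the gene, in LAN-2, IMR-32 and CLB-GA. There the peak of IMR-32 was 1644 bp wide (chr10:43599203-43600846), that of LAN-2 904 bp (chr10:43600032-43600935) and that of CLB-GA 2112 bp (chr10:43600065-43602176), with 6.33, 9.4 and 6.63 CpG per 100 bp. N206 had a peak at the same site, over exon 5, that lay 386 bp outside the window. Intron 1 was the other site with recurrent peaks.

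Along the RET body, peaks covered 0% in CHP-902R, 2.89% in LAN-2, 7.22% in N206 and 7.9% in IMR-32, and 4.79% in SJNB-1, 1.99% in SK-N-AS, 6.37% in CLB-GA and 3.07% in SH-SY5Y. The MNA lines thus held both the lowest and the highest value. The means, 4.5 ± 3.73% and 4.06 ± 1.93%, differed by less than the spread between lines (exact permutation p = 0.829, adjusted p = 1.0).

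GFRA1, the co-receptor that binds GDNF, spans 219.9 kb (chr10:117816436-118036315, minus strand). Its coding exon 3, about 2 kb downstream of the canonical TSS, was the site of peaks in LAN-2, N206, IMR-32, SJNB-1, CLB-GA and SH-SY5Y (chr10:118029962-118031417), and the 6 shared the 248 bp printed above. The scores were 198 in LAN-2, 115 in N206, 131 in IMR-32, 96.8 in SJNB-1, 105 in CLB-GA and 154 in SH-SY5Y. These were high in their lists, with a median percentile of 93.3. Only 4 of the 6 peaks counted as promoter peaks: that of SJNB-1 lay 3 bp and that of CLB-GA 179 bp outside the nearest window of an alternative TSS. With windows 10 bp wider on each side, the number of lines with a GFRA1 promoter peak was 6 in place of 5. CHP-902R and SK-N-AS had no peak at exon 3. SK-N-AS had one upstream of the canonical TSS (chr10:118034011-118034258, score 109, 7.26 CpG per 100 bp), and no other line had a peak in the canonical window, which held 7.56 CpG per 100 bp.

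CHP-902R also had the lowest cover of the GFRA1 body, 0.367%, with 2 peaks. The other values were 4.1% in LAN-2, 3.05% in N206 and 2.62% in IMR-32, and 1.34% in SJNB-1, 1.59% in SK-N-AS, 1.9% in CLB-GA and 3.01% in SH-SY5Y. Means were 2.53 ± 1.57% in MNA and 1.96 ± 0.74% in single copy lines (exact permutation p = 0.543, adjusted p = 1.0). The difference of 0.574 percentage points was 0.0521 without LAN-2 and 1.3 without CHP-902R.

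GFRA2, the co-receptor of neurturin, was the only receptor with promoter peaks in 1 MYCN group alone. It spans 122.0 kb on chromosome 8 (minus strand), and its canonical promoter window was the richest in CpG of the 9, with 9.64 per 100 bp. SJNB-1, CLB-GA and SH-SY5Y had a peak at the upstream edge of that window, centred 1283 to 1516 bp from the TSS, and none of the 4 MNA lines did. The scores were 76.0 in SJNB-1, 52.7 in CLB-GA and 143 in SH-SY5Y, and SK-N-AS had no peak there. SH-SY5Y had a further peak at an upstream TSS of the gene, and a peak of CHP-902R at the same place missed that window by 24 bp, so that the count of MNA lines rested on the edge of the window. Counting 3 of 4 single copy lines against 0 of 4 MNA lines gave p = 0.143 by two-sided Fisher's exact test (adjusted p = 1.0). A stricter pattern, a peak in every line of one group and in none of the other, was counted over the 35865 genes tested. It was found in 0.262% with MNA higher and in 0.092% with single copy higher, and no receptor showed it. The share of genes with peaks in 3 lines of one group and in none of the other was not counted. The peak of CLB-GA was near the threshold of the list. Among peaks with a score of at least 100, SH-SY5Y alone kept one.

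The GFRA2 body had peaks in every line, and coding exon 4 had them in 6, all 4 MNA lines with CLB-GA and SJNB-1. Cover ran from 2.53% in N206 to 5.71% in LAN-2 among MNA lines and from 2.35% in SK-N-AS to 4.16% in CLB-GA among single copy lines. The means of 3.7 ± 1.42% and 3.07 ± 0.769% did not differ past the spread between lines (exact permutation p = 0.514, adjusted p = 1.0).

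GFRA3, the co-receptor of artemin, had no promoter peak in any line and the promoter window poorest in CpG, with 3.32 per 100 bp. The gene is short, 22.2 kb (chr5:137588069-137610310, minus strand). Its recurrent sites were coding exon 4 (chr5:137593156-137594254), in IMR-32, LAN-2 and all 4 single copy lines, and intron 1, about 2.3 to 3.5 kb from the TSS, in CHP-902R, LAN-2, IMR-32, SK-N-AS and CLB-GA. Scores at exon 4 were 76.9 in LAN-2, 98.9 in IMR-32, 154 in SJNB-1, 65.3 in SK-N-AS, 144 in CLB-GA and 113 in SH-SY5Y. The presence at exon 4 in 2 MNA and 4 single copy lines gave p = 0.429 by two-sided Fisher's exact test.

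GFRA3 was also the 1 receptor of the 9 with the higher mean body cover in single copy lines. Peaks covered 5.38% of its body in CHP-902R, 4.51% in LAN-2, 2.77% in N206 and 4.29% in IMR-32, and 3.75% in SJNB-1, 10.3% in SK-N-AS, 6.19% in CLB-GA and 3.06% in SH-SY5Y. The means were 4.24 ± 1.08% and 5.83 ± 3.28% (exact permutation p = 0.457, adjusted p = 1.0). In the DNA within 500 kb the order was the opposite, with 3.83 ± 1.38% in MNA and 2.7 ± 0.267% in single copy lines (exact permutation p = 0.0286, not adjusted for the 9 genes whose flanks were compared). The difference in the body rested on SK-N-AS: without that line the difference was -0.0967 percentage points in place of -1.59.

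**Figure D3:**
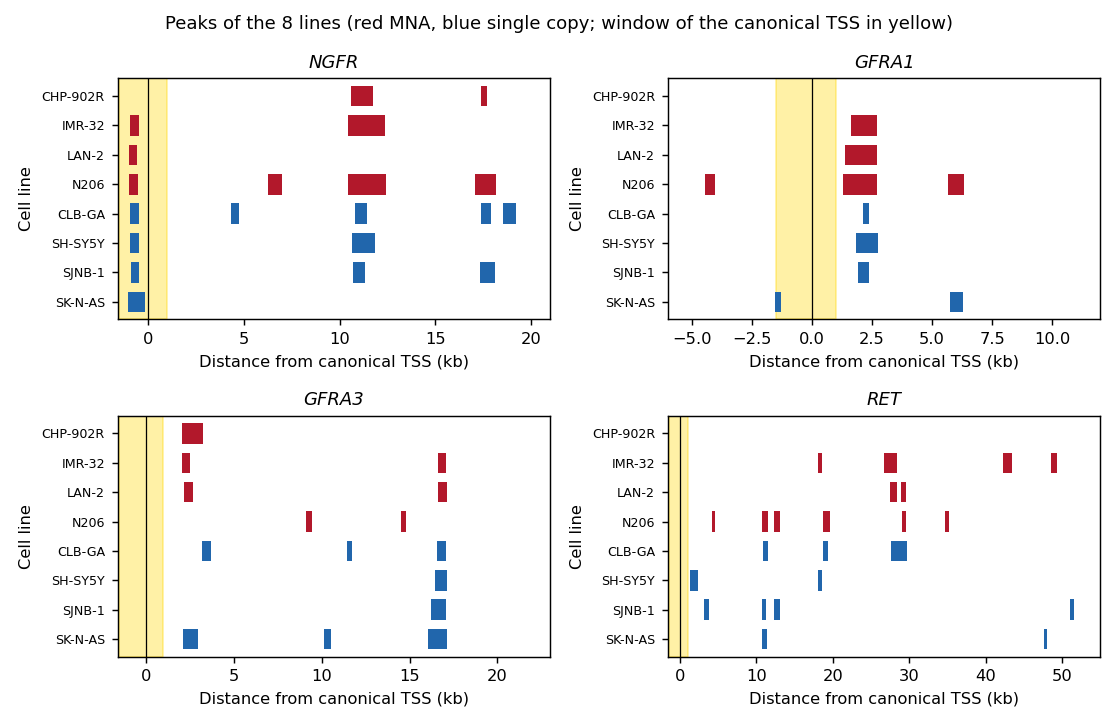
Peaks of each line along NGFR, GFRA1, GFRA3 and RET, drawn to scale by distance from the canonical TSS in kb, with positive values into the gene; red bars are peaks of MNA lines, blue bars those of MYCN single copy lines, and the yellow band is the canonical promoter window. NGFR shows the upstream peak of 7 lines and the exon 3 peak of 6, GFRA1 the exon 3 peak of 6 just outside the band, GFRA3 the exon 4 peak of 6, and RET a band without peaks.

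ALK is the longest of the group, 728.8 kb (chr2:29415640-30144452, minus strand), and held 363 body peaks over the 8 lines, of which 334 lay in introns. No line had a peak at the canonical TSS, where the window held 4.56 CpG per 100 bp. The promoter peaks of CHP-902R, LAN-2, N206, SJNB-1, SK-N-AS and SH-SY5Y lay at internal starts, mainly near exons 19 and 20, about 697 kb into the gene, and near exon 8. Transcripts that start within intron 19 and code for the kinase part of ALK are known from other tumors. Around exons 19 and 20, the highest score was 75.6 in CHP-902R, 68.6 in LAN-2, 59.3 in N206, 71.7 in SJNB-1 and 56.0 in SH-SY5Y. None of these reached 100; the 1 ALK promoter peak that did was another of LAN-2, in intron 2 (score 104).

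A region of ALK intron 23 (chr2:29438420-29441287) had peaks in all 8 lines, with scores of 54.0 to 148. In all, 19 of the 405 regions formed by merging the overlapping peaks of the 8 lines at the receptor genes had peaks in at least 6 lines, which is 4.69%, against 3.53% of all merged regions. ALK held 9 of the 19, and also 174 of the 405. Most regions were private to a line: 233 of the 405 (57.5%) had a peak in 1 line only, as did 56.2% of all merged regions. One region of ALK, in intron 11 (chr2:29487603-29488663), had a peak in all 4 MNA lines and in no single copy line (two-sided Fisher's exact p = 0.0286, adjusted p = 1.0). Such regions made up 0.273% of those tested in the genome, and those with a peak in all single copy lines and in no MNA line 0.0902%. Its scores were between 51.8 and 97.0, and it no longer separated the groups among peaks with a score of at least 100 or when peaks within 500 bp were merged.

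IMR-32 stood apart from the other lines over part of ALK. From 220.4 to 447.4 kb from the TSS (chr2:29697092-29924066, from intron 2 to intron 4, with exons 3 and 4), its peaks covered 36.7% of 227.0 kb. The same stretch was covered to 1.41% in CHP-902R, 1.83% in LAN-2 and 3.66% in N206, and to 0.744% in SJNB-1, 1.5% in SK-N-AS, 1.61% in CLB-GA and 1.92% in SH-SY5Y. The stretch was delimited after its values were seen and is given as a description. In the rest of ALK the cover of IMR-32 was 2.22%, within the range of 1.73% to 5.36% over the 8 lines, and in the flanks of 500 kb it was 2.61%.

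The peaks of IMR-32 within this stretch differed in width and score from its other ALK peaks. There were 51 of them, with a mean width of 1630 bp and a median score of 202, where the 21 peaks in the rest of the gene had 530 bp and 68.5. They were poor in CpG, with a median of 0.995 per 100 bp against 2.01. The highest score was 1380. Among 61831 overlapping windows of 200 kb in IMR-32, the best ALK window, covered to 35.8%, ranked 11th, and every window above it lay near MYCN, where the best was covered to 42.4%. Because the windows overlap, this rank counts windows and not separate places. Copies of the DNA were not measured in these files, so extra copies of this stretch and its methylation cannot be told apart.

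**Figure D4:**
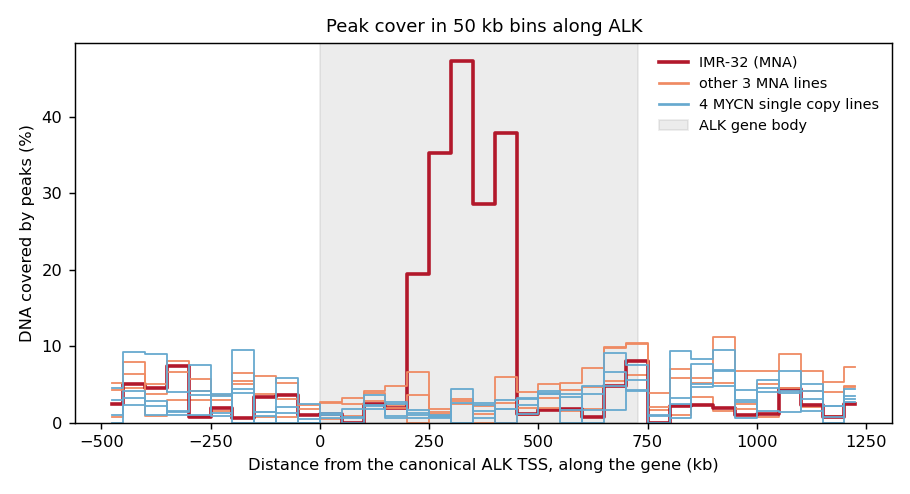
Share of DNA covered by peaks, in percent, in bins of 50 kb along ALK and the 500 kb on either side, by distance from the canonical TSS in kb; the thick red line is IMR-32, thin orange lines are the other 3 MNA lines, thin blue lines the 4 MYCN single copy lines, and the grey band is the gene. IMR-32 rises above the other lines within one stretch, from 220.4 to 447.4 kb, and does not stand out elsewhere.

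Over the whole ALK body, cover was 2.13% in CHP-902R, 3.74% in LAN-2, 4.83% in N206 and 12.9% in IMR-32, and 2.0% in SJNB-1, 1.66% in SK-N-AS, 2.37% in CLB-GA and 3.27% in SH-SY5Y. The means were 5.91 ± 4.82% and 2.32 ± 0.694%, a difference of 3.59 percentage points (exact permutation p = 0.0857, adjusted p = 1.0). The size of this difference rested on IMR-32: it was 1.24 without that line. With the stretch taken out in all lines, the means were 3.66 ± 1.56% and 2.72 ± 0.885% and the difference was 0.937 (exact permutation p = 0.314).

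LTK, the relative of ALK, is the shortest of the genes, 10.3 kb (chr15:41795835-41806085, minus strand), and had 4 peaks in all. There was no promoter peak in any line, with 4.08 CpG per 100 bp in the canonical window. Body peaks were found in CHP-902R, N206 and CLB-GA. CHP-902R and N206 had a peak over the last coding exons (scores 71.0 and 81.6), N206 another in intron 7 (90.3), and CLB-GA one over coding exons 6 and 7 (61.1), which held 9.57 CpG per 100 bp. Cover was 4.57% in CHP-902R, 10.7% in N206 and 4.49% in CLB-GA and 0% in the other 5 lines. With means of 3.82 ± 5.07% and 1.12 ± 2.24%, the groups did not differ past the spread between lines (exact permutation p = 0.429, adjusted p = 1.0). At 1 or 2 peaks per line, this gene gives little on which to compare groups.

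Read side by side, the receptors differed in where their peaks lay. In NGFR 11 of 13 body peaks and in GFRA3 7 of 15 touched a coding exon of the canonical transcript, whereas 29 of 363 did in ALK and 12 of 152 in NTRK3, whose introns make up nearly the whole gene. NTRK2, a gene of similar length to NTRK3, had 18 of 72. The counts were 10 of 81 in GFRA1, 16 of 57 in GFRA2, 9 of 23 in RET and 3 of 4 in LTK. The peaks of NGFR were also the richer in CpG, with a median of 5.09 per 100 bp, against 1.82 in ALK, 2.38 in NTRK3, 2.42 in NTRK2 and 2.14 in RET. The whole gene body of NGFR was likewise richer, with 2.89 per 100 bp, against 0.84, 0.914, 0.799 and 2.14 in the same order. A body peak was found in all 8 lines for 6 of the 9 receptors (32.8% of protein-coding genes), the exceptions being NGFR, RET and LTK. These exceptions were 10.3 to 53.3 kb long. The 6 were 122.0 to 728.8 kb long, apart from GFRA3 with 22.2 kb. The share of 32.8% was over genes of any length, so the count is not a trait of the receptors apart from their length. The canonical window held 4 or more CpG per 100 bp in 8 receptors, all but GFRA3, and 5 of these 8 had a peak there in at least 1 line, with a mean of 1.62 lines that fell to 0.857 without NGFR. Among all protein-coding genes of that class, 53.7% had a peak in at least 1 line, and the mean was 1.45 lines.

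The ligands, co-receptors and adaptors of the same pathways were read in the same way, from a list of 27 genes. Of these, 25 had a promoter peak in at least 1 line, 20 in at least 2 and 9 in at least 6, shares that are to be read against 73.9%, 60.9% and 21.6% of protein-coding genes. All 3 co-receptors of NGFR were among the 9: the sorting receptor SORT1 had a peak in 7 lines, the Nogo receptor RTN4R in 8 and LINGO1 in 6. Of 4 GDNF family ligands, PSPN (persephin) had one in 6 lines and NRTN (neurturin, the ligand of GFRA2) in none. Of 10 adaptors, which pass the signal on from the activated receptors, SHC2 and KIDINS220 had one in 8 lines, GAB1 and GAB2 in 7 and SHC1 in 6. None of the 4 neurotrophins reached 6 lines, and neither did the 4 ligands of ALK and LTK. GFRAL, a distant relative of the GFRA co-receptors, had none. These counts take every annotated TSS. At the canonical TSS a peak was found in 6 lines for RTN4R, 5 for PSPN and KIDINS220, 4 for SHC1, 3 for GAB1 and 2 for LINGO1. For SORT1, SHC2 and GAB2 no line had a peak there. No gene of the list separated the MYCN groups by promoter peaks, where 0.262% (MNA higher) and 0.092% (single copy higher) of all genes tested did. For body cover 0 of 27 had an unadjusted exact permutation p under 0.05, where 1.7% and 0.339% of genes did. NRTN and GFRAL had no promoter peak to test, and MDK no body cover. With shares this small, a count of 0 says little about the list.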

How the data were processed

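Paired-end reads of 45 bp from MBD2-captured DNA were mapped by the authors on GRCh37 with Bowtie 0.12.7. MACS (1.4beta) then gave a peak list for each line. The options, an input control and the depth of each single line are not given in the sources used here, which state only a range of reads over the lines. The deposited lists hold the position of each peak and a score, minus 10 times log10 of its p-value, which was used only within a list. Starts were counted from 1.

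Windows and gene bodies came from the GRCh37 version of GENCODE release 44, and an overlap of 1 bp counted. With Python 3.11.15, numpy 2.4.6, scipy 1.17.1 and pandas 2.3.3, the number of lines with a promoter peak was compared by two-sided Fisher's exact test for 35865 genes, the percent of the gene body covered by two-sided exact permutation test over the 70 splits of 4 lines against 4 for 37205 genes, and merged regions with peaks in at least 2 lines by Fisher's exact test, each adjusted by Benjamini-Hochberg over all features tested. The promoter test was tested on simulated data. Canonical transcripts are those GENCODE tags as such. MYCN status came from the labels, and the 8 lines are 1 sample each, so p-values measure the spread between lines. Sequences were read from the GRCh37 genome.

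The 9 members and the list of 27 genes were chosen with earlier results of these data known. All members were named; list genes were named where a promoter peak was found in at least 6 lines, in none, or in every line of one group and none of the other. The stretch of high cover in ALK, its removal and the window wider by 10 bp were chosen after seeing the data.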

Additional observations from a re-analysis of the deposited data

Results flagged for a closer look

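For the cover of the 9 gene bodies in each MYCN group, 18 groups of 4 lines were examined for a line far from the others. One was found: in LTK, CLB-GA had 4.49% of the body covered by its 1 peak while the other 3 single copy lines had no peak, so that the gap from CLB-GA to its neighbor, divided by the range of the group, was 1.0, above Dixon's 95% limit for 4 values. About 1 in 20 such groups is marked by chance. IMR-32 in ALK did not pass this limit among the 4 MNA lines.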

How the results depend on the processing

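The adjusted p could not fall under 0.05 with so few genes at the smallest possible p, and is therefore no sign of stability; the lowest for a receptor in any alternative was 0.912. When a peak had to score at least 100, the genes with an unadjusted p under 0.05 fell from 127 to 27 for promoter peaks and from 760 to 218 for body cover, the receptors with a promoter peak in at least 2 lines from 7 to 4, and the separating regions in the receptor genes from 1 to 0. In that setting the difference, MNA minus single copy, turned to 25 percentage points of the lines for the NGFR promoter (from -25) and to -1.6, -0.889 and -0.387 percentage points of cover for NGFR, RET and GFRA2. With every list reduced to the length of the shortest, the differences in cover of NTRK2 and GFRA2 were -0.0557 and -0.308. With the canonical TSS alone, 68 genes passed the unadjusted threshold, 2 receptors had a promoter peak in at least 2 lines and GFRA1 turned to -25. With the TSSs of protein-coding transcripts, 53 genes passed. Peaks per 100 kb in place of cover gave 325 genes and -1.27 peaks for NGFR, and the body without promoter windows gave -0.253 for RET. In these 2 settings NTRK3 had differences of 3.65 peaks and 1.82 percentage points (exact permutation p = 0.0286 each). For the cover of NTRK3, the exact permutation p was 0.143 at a score of at least 100 and without CLB-GA, SJNB-1 or SK-N-AS. Merging peaks within 500 bp left 0 separating regions. Over 7 lines without CHP-902R, 295 genes passed for promoter peaks, and NTRK3 and ALK had differences in cover of 2.3 and 4.85 (exact permutation p = 0.0286 each, adjusted p = 0.912). With each line left out in turn, 237 to 322 genes passed for promoter peaks. A gene that separated the groups over 8 lines also did so over any 7 and still passed. The promoter counts with a line left out could therefore not fall under 127, and their rise is no sign of dependence on a line. For body cover, 572 to 709 passed without a single copy line and 842 to 1137 without an MNA line. Differences in cover then ran from -0.282 to 0.3 in NTRK2 (negative without LAN-2 or SJNB-1), from -0.366 to 6.02 in NGFR (negative without N206), from -0.684 to 1.95 in RET (negative without IMR-32, N206 or SK-N-AS) and from -0.0398 to 1.02 in GFRA2 (negative without LAN-2). In GFRA1 they ran from 0.0521 (without LAN-2) to 1.3 (without CHP-902R). In LTK the range was 0.4 to 3.97, with the lowest without N206, and in ALK 1.24 to 4.85. The causes of the other changes were not tested, and neither was depth, which the lists do not give. No paired analysis was possible because the replicate numbers of the lines only follow the order of deposit.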
